A study of Vitis amurensis with 6 samples.

Results

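Chromatin sites that were open in untreated leaves of Amur grape (Vitis amurensis) and had no called site after 2 h of cold were examined by ATAC-seq. A site was taken as open where a library had a transposase hypersensitive site (THS), an interval in which the fragments cut by the transposase pile up. Overlapping THSs of the 6 libraries (1 bp or more in common) were joined to regions, and a region was kept when it lay on chromosomes 1 to 19 and had a THS in at least 2 of 3 control libraries and in none of 3 cold libraries. This kept 2622 of the 39746 regions on those chromosomes (6.60%), out of 44710 on all sequences. Among the 10056 regions with a THS in at least 2 control libraries, the 2622 regions without a cold THS made up 26.1%. The other 7434, which also had a THS in at least 1 cold library, are called comparison regions here. The members were chosen by the presence or absence of a THS in all 6 libraries, so their presence, scores and widths are given as a description, with no test.

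The cold group was made of leaves from plants held for 2 h at 4°C in constant light (3 libraries), and the control group of leaves from plants kept at 26°C under that light and sampled at 0 h (3 libraries). All plants were wild type, 1 month old and propagated in vitro, and per the study's methods each replicate pooled leaves of several plants. No library was taken at 26°C after 2 h, so cold and elapsed time cannot be told apart. The lists hold positions and scores without gene names, so the leaf label could not be checked against marker genes.

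In ATAC-seq a transposase inserts adapters where DNA is not wrapped around nucleosomes, and open sites of this kind often lie at promoters and enhancers, where transcription factors bind. Plants answer chilling within hours by a cascade of transcription factors, the best known being the ICE1 and CBF proteins, and the opening or closing of regulatory sites is one way in which such factors gain or lose access to their targets. A site that loses its THS in the cold would be a candidate for closing, whereas a site that only falls below the calling threshold would look the same in a list of THSs.

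The libraries were not alike in the shape of their THSs, which bears on every result below. On chromosomes 1 to 19 the cold libraries held 11453, 13372 and 11645 THSs and the control libraries 16145, 17083 and 11169. Median THS widths were 341, 184 and 171 bp in cold replicates 1, 2 and 3, against 372, 384 and 348 bp in control replicates 1, 2 and 3. The narrowest THS measured 111 and 106 bp in cold replicates 2 and 3, and 199 to 217 bp in the other 4 libraries. On these chromosomes THSs covered 4.94, 3.13 and 2.52 Mb in the cold libraries, against 7.59, 8.28 and 4.88 Mb in the control libraries. Cold replicate 1 thus resembled the control libraries in THS width, and the short-width set held cold libraries only. Read numbers per THS were not used here, so a missing THS means that none was called and not that the site was shown to be closed.

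Most of the control-open, cold-absent regions were seen in only 2 of the 3 control libraries. All 3 control libraries had a THS in 411 of them (15.7%), although in 66 of these no base pair was covered by all 3. Control replicates 1 and 2 alone held 1099, replicates 2 and 3 held 599, and replicates 1 and 3 held 513. In comparison regions the order was turned, since 4647 of 7434 (62.5%) had a THS in all 3 control libraries. Read the other way, regions with a THS in all 3 control libraries lacked a cold THS in 8.13% of 5058 cases, and regions with exactly 2 lacked it in 44.2% of 4998 cases. The share was 41.1% for control replicates 1 and 2, 45.2% for replicates 1 and 3 and 50.4% for replicates 2 and 3. Control replicates 1, 2 and 3 had a THS in 2023, 2109 and 1523 of the members, and these THSs were 12.6, 12.5 and 13.7% of each library's THSs on chromosomes 1 to 19.

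The THSs in these regions were weaker than those in comparison regions. The score of a THS (taken to be −log10 q from the peak caller) had a median of 3.06, 3.27 and 3.22 over the member THSs of control replicates 1, 2 and 3, against 7.01, 6.80 and 5.99 over the THSs of comparison regions in the same libraries. Because each library has its own score scale, THSs were also ranked within their library. The highest score of each region had a median percentile of 37.0, 41.2 and 34.5 in the members and 73.5, 75.6 and 68.8 in comparison regions. Of the member THSs, 3, 6 and 1 lay above the 90th percentile of control replicates 1, 2 and 3. The weakest control library of a region reached at least the 50th percentile in 328 members (12.5%), against 58.0% of comparison regions, and at least the 90th percentile in 2 members, against 879 comparison regions. In each control library the member THSs thus had their median in the lower middle of the list, with a few strong exceptions.

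**Figure D1:**
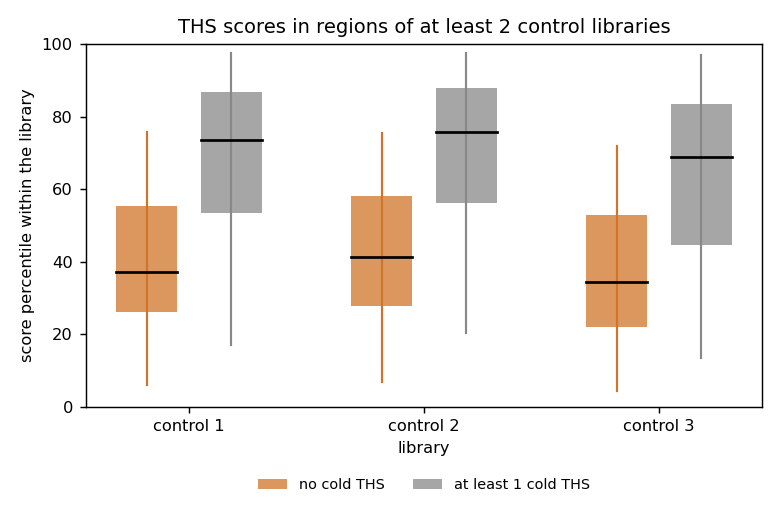
Score percentile within each control library (y axis, 0 to 100) of regions with a THS in at least 2 control libraries, for regions with no cold THS (orange, 2023, 2109 and 1523 regions) and regions with at least 1 cold THS (grey, 6845, 6812 and 5858 regions). Boxes span the middle of the distribution from the 25th to the 75th percentile of regions, black lines mark medians, and thin lines reach from the 5th to the 95th; the orange medians (37.0, 41.2 and 34.5) lie below the grey ones (73.5, 75.6 and 68.8) in all 3 libraries.

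Absence from the cold libraries went hand in hand with a low control score. Regions were placed in 5 bands of 20 percentile points by their weakest control THS. With exactly 2 control libraries, 61.5% of 1509 regions in the lowest band had no cold THS, and the share was 50.4, 35.0, 18.2 and 7.20% in the bands above it. With all 3 control libraries, the shares were 27.0, 19.3, 8.31, 1.90 and 0.381% from the lowest to the highest band, the last being 6 of 1573 regions (0.140 to 0.828%, exact binomial 95% limits of counting error alone). In every band, regions with a THS in the third control library had a lower share of absence. The score is not held equal by this, since the lowest of 3 values is by construction lower than the lowest of 2. In the same bands, with all 3 control libraries, cold replicate 1 had a THS in 53.2 to 98.0% of regions, cold replicate 2 in 34.8 to 96.4% and cold replicate 3 in 27.8 to 95.1%.

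**Figure D2:**
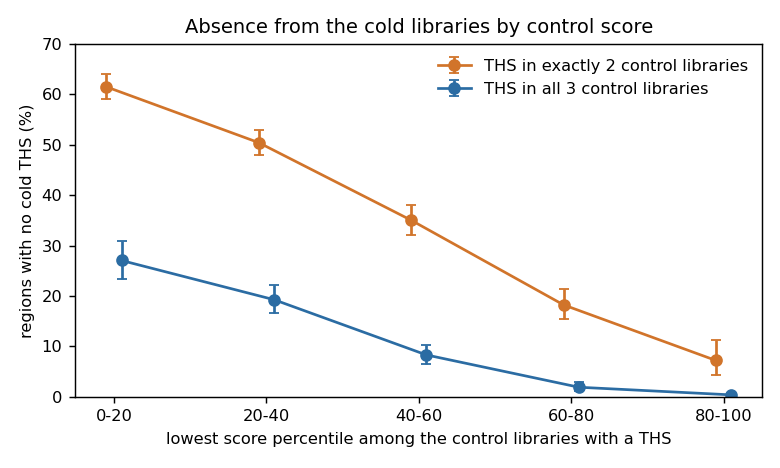
Share of regions with no cold THS (y axis, %) by the lowest score percentile among the control libraries that had a THS (x axis, bands of 20 percentile points). Orange points are regions of exactly 2 control libraries (61.5 down to 7.20%) and blue points regions of all 3 (27.0 down to 0.381%); bars are exact binomial 95% intervals, and both lines fall from left to right.

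The control libraries agreed less on the strength of these sites than on that of comparison regions. Across the regions that 2 control libraries shared, Spearman's rho of their scores was 0.274 for replicates 1 and 2 (1510 members), 0.198 for replicates 1 and 3 (924) and 0.209 for replicates 2 and 3 (1010). In comparison regions it lay between 0.816 and 0.822. These correlations are across regions, which are not independent replicates, and the members span a narrower range of scores.

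The members were also narrower than comparison regions. Their median width was 524 bp (25th to 75th percentile, 405 to 701 bp), against 704 bp (483 to 1043 bp) in comparison regions. Part of this follows from the rule, because a comparison region joins THSs of more libraries. The length covered by every control library that had a THS there, here called the core, had a median of 227 bp in the members and 311 bp in comparison regions. It took up at least 50% of the region in 1126 members (42.9%). In 66 members, called in all 3 control libraries, no base pair was covered by all 3, because their THSs were linked only as a chain. Together the members spanned 1.53 Mb and the comparison regions 6.19 Mb.

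Regions just outside the rule were mostly those kept by cold replicate 1. Among the 2369 regions with a THS in at least 2 control libraries and in exactly 1 cold library, that library was cold replicate 1 in 1358 (57.3%), cold replicate 2 in 615 (26.0%) and cold replicate 3 in 396 (16.7%). The cold library's THSs covered a median of 347, 176 and 158 bp of these regions in cold replicates 1, 2 and 3. The median percentile of the weakest control THS was 26.0 in members with 2 control libraries and 34.0 in the 1546 regions with 2 control and 1 cold library. With 3 control libraries it was 26.0 in the members and 35.1 in the 823 regions with 1 cold library. On the other side of the rule, the 14254 regions with a THS in 1 control library and no cold library had a median percentile of 27.7 in that library. The lowest of several values is lower by construction than a single one, so these medians do not compare members with sites of 1 control library.

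Whether sites of this kind lost their THS in the cold was tested in libraries whose presence did not enter the choice. The region edges came from the merge of all 6 libraries, those set aside included. The sets chosen in this way differ from the members, since a THS in the cold library set aside was allowed. For each of the 9 pairs of 1 cold and 1 control library, regions were taken that had a THS in both remaining control libraries and in neither remaining cold library (1102 to 2510 regions per pair), and the share with a THS in the 2 libraries set aside was read. Cold replicates 1, 2 and 3 had a THS in 41.9, 21.9 and 15.1% of such regions (means over 3 pairs each), and control replicates 1, 2 and 3 in 47.9, 51.3 and 32.6%. The group means were 26.3 ± 13.9% in the cold and 43.9 ± 9.95% in the control (SD, n = 3 each), a difference of -17.7 percentage points. The groups overlapped, since cold replicate 1 lay above control replicate 3. The group labels were not separated by the test (exact permutation test of the 6 libraries, two-sided, p = 0.2, adjusted p = 0.2 over 2 tests). The choice of regions was not repeated for each assignment of labels, and the library values depend on one another. The p-value therefore describes the 6 finished values only. The smallest p that 3 against 3 libraries allow is 0.1.

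The held-out cold libraries did not behave alike. Over all regions called in at least 1 of the 4 libraries not set aside, cold replicates 1, 2 and 3 had a THS in 24.3, 25.7 and 22.3%, and control replicates 1, 2 and 3 in 32.8, 34.1 and 23.7%. Relative to this level, cold replicate 1 held the chosen regions 1.72 times as often, cold replicate 2 0.851 times and cold replicate 3 0.677 times, while the control libraries lay between 1.38 and 1.51 times. On this scale the difference of the group means was -0.37 (exact permutation p = 0.4). Cold replicates 2 and 3 were thus below their own overall level, whereas cold replicate 1 was above it. The overall level includes regions called in the remaining cold libraries, which the chosen sets leave out. Calls shared between cold libraries can therefore place a cold library below its level by selection, and a value below it does not show a loss. The relative values rest on different sets of regions, so libraries are not ranked by them. In the sets chosen without cold replicate 1, it had a THS in 42.0, 43.8 and 39.8% of regions. Control replicates 1, 2 and 3, set aside with it, had one in 55.0, 58.2 and 38.1%. Overall levels there were 24.5, 25.2 and 23.2% in cold replicate 1 and 31.9, 33.3 and 23.3% in the control libraries. When cold replicate 1 was left out of every step, cold replicates 2 and 3 reached 32.1 and 21.4%, against 61.2, 63.8 and 43.4% in the control libraries (difference -29.4 points, exact permutation p = 0.2). Without cold replicate 2 or 3 in any step the difference was -14.8 or -12.1 points. Without control replicate 1, 2 or 3 in any step, where a region needed a THS in the single control library that remained, it shrank to -9.37, -8.15 or -11.3 points. Within the 4 libraries of long THSs, where a region needed a THS in both remaining control libraries only, cold replicate 1 reached 70.8%, inside the range of the held-out control libraries (81.0, 81.6 and 65.4%), a difference of -5.23 points from their mean. With a single cold library no spread within the cold group can be had here, and the libraries of short THSs hold no control library for the same comparison. The difference between the groups and that between long and short THSs cannot be told apart in cold replicates 2 and 3.

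**Figure D3:**
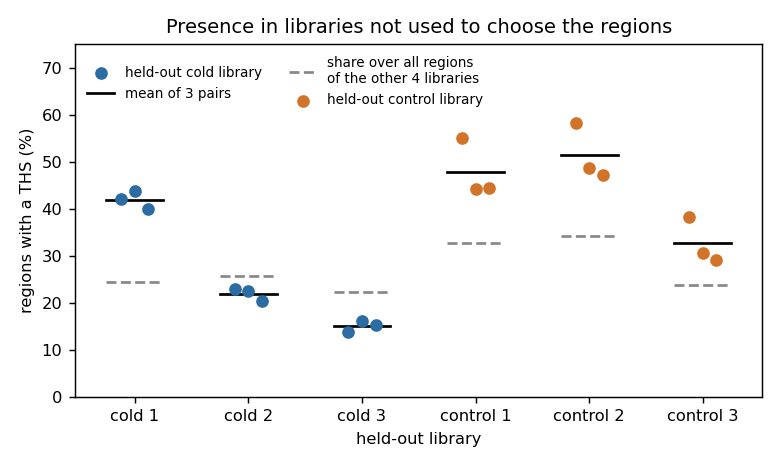
Share of regions with a THS (y axis, %) in each library when that library was set aside, for regions open in both other control libraries and absent from both other cold libraries. Points are the 3 pairs in which a library was set aside (blue, cold; orange, control), black lines their means and dashed grey lines the mean share over all regions called in at least 1 of the other 4 libraries; cold replicates 2 and 3 (21.9 and 15.1%) lie below their dashed lines, while cold replicate 1 (41.9%) and the 3 control libraries (32.6 to 51.3%) lie above theirs.

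The surroundings of the members were described next, library by library. THSs within 10 kb of a region were counted that lay in regions with a THS in 0 or 1 control libraries. The rule did not use these THSs, but calls of the same 6 libraries set the members apart from comparison regions. Comparison regions had to hold a cold THS and members none, so the rule itself can lower the ratios of the cold libraries. The ratios below are therefore no independent test of a loss in the cold. Their p-values describe how the library ratios separate and are no evidence of such a loss. Near the members, cold replicates 1, 2 and 3 had 40.6, 42.3 and 37.1 such THSs per 100 regions, and control replicates 1, 2 and 3 had 56.8, 52.7 and 27.8. Near comparison regions, cold replicates 1, 2 and 3 had 32.7, 52.2 and 45.9 per 100, and control replicates 1, 2 and 3 had 46.3, 38.2 and 21.9. The ratio of members to comparison regions was therefore 1.24, 0.810 and 0.807 in cold replicates 1, 2 and 3, against 1.23, 1.38 and 1.27 in control replicates 1, 2 and 3. The means were 0.952 ± 0.249 in the cold and 1.29 ± 0.0783 in the control (SD, n = 3 each; difference -0.34, exact permutation p = 0.2, adjusted p = 0.2 over 2 tests).

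Cold replicate 1 lay inside the range of the control libraries, so the groups overlapped. Without cold replicate 1 the difference was -0.48 and the groups did not overlap (exact permutation p = 0.1, the smallest possible), and in the 4 libraries of long THSs alone it was -0.05, a value of 1 cold library with no spread of its group and therefore given without a test. With a common lower width limit of 217 bp for neighbouring THSs, cold replicates 1, 2 and 3 had ratios of 1.27, 0.841 and 0.819. The control libraries had 1.25 to 1.38. The limit was applied to neighbours only, and the members and comparison regions were still set by THSs of every width. The part of THS width in these ratios was not tested. The ratios above 1 depended on which neighbours were counted. When only neighbours with a score of at least 4.13 were counted, the ratios were 0.779, 0.644 and 0.502 in the cold libraries and 0.853 to 0.964 in the control libraries (difference -0.26, exact permutation p = 0.1). When all neighbouring THSs were counted, those in other members and comparison regions included, the ratios were 0.765, 0.624 and 0.603 in the cold libraries and 0.834, 0.860 and 0.778 in the control libraries (difference -0.16, exact permutation p = 0.1). Within 50 kb the difference was -0.22 (exact permutation p = 0.1), and within 5 kb it was -0.38 (exact permutation p = 0.3). The groups did not overlap under the stronger score, with all neighbours or within 50 kb, where cold replicate 1 (1.147) lay just below control replicate 1 (1.148).

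**Figure D4:**
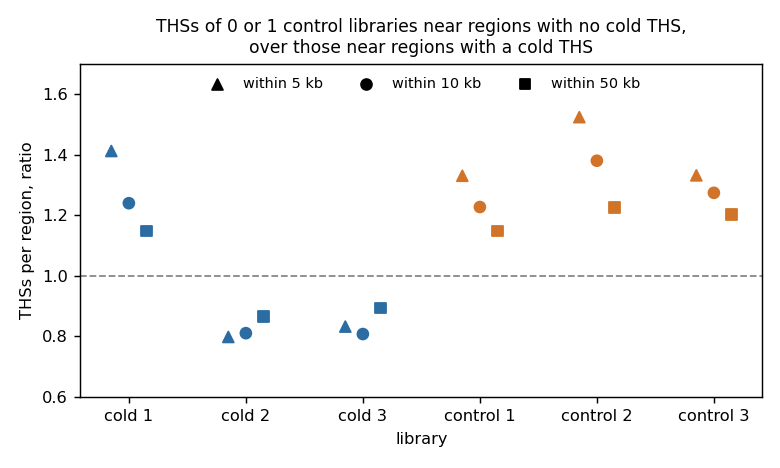
Number of THSs per region near regions with no cold THS divided by the number near regions with at least 1 cold THS (y axis, ratio), for each library (x axis; blue, cold; orange, control) and for distances of 5, 10 and 50 kb (triangles, circles, squares). Only THSs in regions of 0 or 1 control libraries were counted; the dashed line marks a ratio of 1. Within 10 kb, cold replicates 2 and 3 lie at 0.810 and 0.807 and the other 4 libraries between 1.23 and 1.38.

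Distances to the nearest cold THS are given for the members alone. Without a like value for other regions, they do not show whether the members lay unusually near or far. The nearest THS of any cold library lay within 200 bp of the edge of 153 members (5.84%), within 1000 bp of 662 (25.2%) and within 10 kb of 1987 (75.8%). The median distance was 3908 bp. Taken singly, cold replicates 1, 2 and 3 had their nearest THS at medians of 8355, 10154 and 11830 bp. Within 1000 bp cold replicate 1 had a THS near 376 members, cold replicate 2 near 287 and cold replicate 3 near 255. In 20 members no cold THS was found within 50 kb. Between neighbouring members on a chromosome the median gap was 76915 bp, against 22924 bp between neighbouring comparison regions, which were more numerous.

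The members lay on all 19 chromosomes, in shares of the control-called regions between 19.3 and 30.0%. Chromosome 1 had the highest share, with 121 of 403 control-called regions (30.0%), followed by chromosome 5 (189 of 659, 28.7%) and chromosome 10 (148 of 519, 28.5%). Chromosome 14 carried the largest number (200 of 706, 28.3%). Chromosome 15 had the lowest share, with 107 of 554 (19.3%, exact binomial 95% interval 16.1 to 22.9%). It was lowest both among regions of exactly 2 control libraries (36.4%, against 39.4 to 50.7% on the other chromosomes) and among those of all 3 (3.79%, against 4.38 to 11.0%). On chromosome 15 cold replicates 1, 2 and 3 had a THS in 64.4, 57.8 and 52.9% of control-called regions, against 58.9, 52.0 and 46.2% over all chromosomes. The median percentile of the weakest control THS there was 53.3, while it ranged from 38.8 to 54.3 on the other chromosomes. The part of these scores in the low share was not tested.

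**Figure D5:**
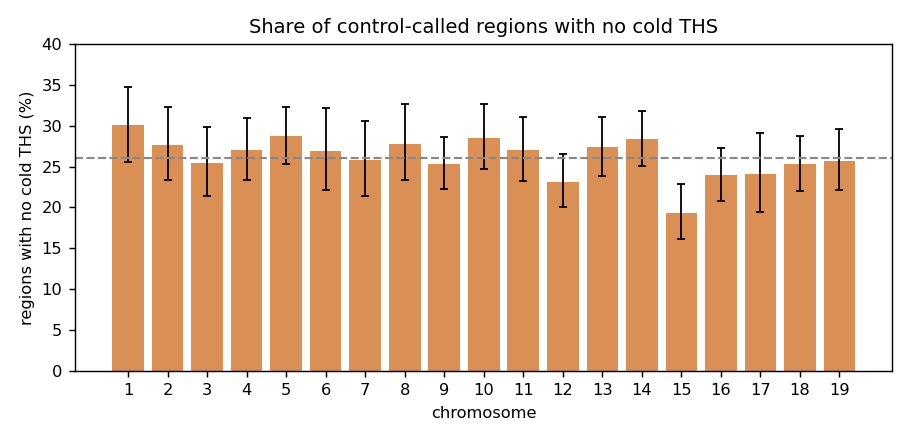
Share of regions with a THS in at least 2 control libraries that had no cold THS (y axis, %) on each of chromosomes 1 to 19 (x axis). Bars are shares, thin lines exact binomial 95% intervals that cover counting error only, and the dashed line is the share over all chromosomes (26.1%); chromosome 15 is lowest (19.3%) and chromosome 1 highest (30.0%).

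Along the chromosomes the members were somewhat more frequent toward the middle. When each chromosome's span of called regions was divided into 5 equal parts, members made up 21.7, 24.3, 29.2, 28.5 and 23.5% of control-called regions from the first part to the last. The order was alike for regions of all 3 control libraries (5.52, 6.85, 10.4, 10.1 and 5.88%) and close to it for regions of exactly 2 (41.8, 40.6, 47.0, 47.0 and 41.7%). The median percentile of the weakest control THS was 49.7 in the first part and 46.0 to 46.4 in the others. Positions of centromeres and genes were not used here.

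Single regions are named on the grape 12X assembly, counted from 1, and none of them had a THS in any cold library. Among members called in all 3 control libraries, ranked by the percentile of their weakest control THS, the highest on 18 of the chromosomes had a core of at least 180 bp. The region chr13:13728925-13729320 scored 21.9, 27.0 and 20.1 in control replicates 1, 2 and 3, and 373 of its 396 bp were covered by all 3. Its nearest THSs lay 13125, 12216 and 12723 bp away in cold replicates 1, 2 and 3. The region chr14:20554396-20554982 (587 bp, core 325 bp) stood farther from the cold lists, at 26692, 27705 and 138983 bp. The region chr18:25505276-25505660 was 101218 bp from a THS of cold replicate 1 but 4040 and 3963 bp from those of cold replicates 2 and 3. In all 3 regions the weakest control THS reached a percentile of at least 86.0, and at least 1 cold library had no THS within 10 kb.

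Others of these members lay closer to a cold THS. The region chr16:4123376-4123909 scored 10.4, 13.5 and 13.1 in control replicates 1, 2 and 3, with cold THSs 1379, 39364 and 1313 bp away in cold replicates 1, 2 and 3. The region chr1:18827758-18828147 scored 10.1, 19.2 and 11.0 and had a cold THS at 962 bp in cold replicate 3. The region chr10:15500983-15501283 reached percentiles of 89.6, 90.2 and 74.5 in control replicates 1, 2 and 3, and its nearest cold THS was 5341 bp away. In chr7:11076669-11077012 the scores were 11.6, 5.62 and 7.84, with a THS of cold replicate 2 at 1868 bp and those of cold replicates 1 and 3 at 16970 and 17093 bp. The region chr11:18081682-18081970 (6.89, 12.2 and 6.37) lay 202 bp from a THS of cold replicate 1. Distances to a cold THS therefore differed widely among these sites.

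On the remaining chromosomes the highest-ranked members called in all 3 control libraries were chr2:9119405-9119765, chr3:13160001-13160960, chr5:16740432-16740691, chr6:15232364-15232683, chr8:14158027-14158434, chr9:9021639-9022161, chr12:1901769-1902207, chr15:13298299-13298735, chr17:8934602-8935031 and chr19:21265094-21265833. Their weakest control percentiles ranged from 40.3 to 77.1, and their nearest cold THSs lay 643 to 9310 bp away. Chromosome 4 stood apart. Its highest-ranked member called in all 3 control libraries, chr4:6251235-6252316, scored 3.58, 3.52 and 4.36, but no base pair was covered by all 3.

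The strongest members of all were missing from 1 control library. The region chr9:14542921-14543458 scored 111 and 94.1 in control replicates 1 and 2 (percentiles of 96.7 and 96.9) and no THS in control replicate 3, and a THS of cold replicate 1 lay 460 bp away. The region chr11:15263970-15264283 scored 102 and 78.4 in control replicates 2 and 3 and had none in control replicate 1, with cold THSs 1802, 478 and 444 bp away in cold replicates 1, 2 and 3. By the percentile of the weakest control THS, both ranked above every member called in all 3 control libraries. Each thus had high scores in a pair of control libraries and no call in the other.

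The other highest-ranked members of a control pair were weaker. They were chr9:20923843-20924103 in control replicates 1 and 2 (20.1 and 18.3), chr5:12063378-12063624 (13.7 and 21.9) and chr11:13308208-13308638 (15.7 and 12.7) in replicates 1 and 3, and chr4:11631468-11631720 (23.4 and 13.6) in replicates 2 and 3.

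The most isolated members called in all 3 control libraries were weak to moderate. The region chr18:12325288-12326013 scored 3.06, 4.53 and 6.37 in control replicates 1, 2 and 3, and the nearest THSs of cold replicates 1, 2 and 3 were 111706, 94055 and 121790 bp away. It was followed by chr6:8333478-8334365 (4.13, 7.82 and 2.77), 53803 bp from a cold THS, and chr14:12381803-12382447 (3.58, 6.80 and 3.17), at 50148 bp. The 3 widest members were chr10:17888972-17891320, chr13:10948024-10950289 and chr10:15271403-15273461 (2349, 2266 and 2059 bp). In the first and the second of these no base pair was shared by all 3 control libraries, so they were chains of neighbouring THSs.

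Of the 1685 windows of 100 kb with a member, 1024 had 1 member, 462 had 2, 140 had 3, 43 had 4, 14 had 5 and 2 had 6. The window chr10:14800001-14900000 held 6 members, which were all of its 6 control-called regions. In it cold replicates 1, 2 and 3 had 1 THS each, against 2, 9 and 5 THSs in control replicates 1, 2 and 3. The window chr16:10300001-10400000 also held 6 members among 13 control-called regions, with 8, 7 and 7 cold THSs against 18, 12 and 11 control THSs. Among the 14 windows with 5 members, chr2:18400001-18500000 and chr6:11600001-11700000 had no other control-called region. Cold replicates 1, 2 and 3 had 1, 3 and 0 THSs in the window of chromosome 2 and 3, 0 and 2 in that of chromosome 6, against 6, 7 and 4 and 7, 10 and 3 in control replicates 1, 2 and 3. Since members raise the control counts of a window by definition, these counts are a description.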

How the data were processed

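ATAC-seq was performed on leaves in 3 cold and 3 control libraries. Per the study's methods, the authors used Cutadapt for trimming and BWA for mapping to the grape 12X genome, kept unique reads without duplicates and called THSs per library with MACS2 at a q-value of 0.05, without a model or shift and with an extension of 200 bp. Their versions were not given in the sources used. The deposited score was read from its values as −log10 of the q-value (lowest scores 1.30 to 1.31). Calls per library depend on that library's depth and fragment lengths. Read totals stated by the study were not used here.

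Regions were merged in Python 3.11.15 (pandas 2.3.3, numpy 2.4.6), bedtools 2.31.1 gave the same 44710, and scripts were tested on simulated data. Library values were compared by exact permutation (20 assignments, regions not chosen anew for each), with Benjamini-Hochberg adjustment over 2 tests. Intervals are exact binomial ones (scipy 1.17.1) and cover counting error only. Plots used matplotlib 3.10.9. Named were the member of highest weakest-library percentile on each chromosome (those in all 3 control libraries first), the first 2 of each control pair, the 3 farthest from a cold THS among those in all 3 control libraries, the 3 widest, and the 3 densest 100 kb windows (fewest other control-called regions at equal counts, both named where still tied). Members and rules were chosen with earlier results of these data known. Alternatives were score, length, overlap, merging, width and library choices. Gene context, sequences and motifs were not analysed here.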

Additional observations from a re-analysis of the deposited data

How the results depend on the processing

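The number of regions (2622) was 986 with scores of at least 4.13 (the median over all lists), 1547 with lists of 11169 THSs each and 411 when all 3 control libraries were required. It was 4130 in the 4 libraries of long THSs alone, a setting chosen after the data were seen. Leaving out 1 library gave 935 to 3984, the highest without cold replicate 1 (3984) and the lower values without control replicate 1, 2 or 3 (1039, 935 and 1516), where both remaining controls had to have a THS. Fewer THSs or libraries and weaker rules move such counts by construction. The other 8 alternatives stayed within 1.5 times the count. All 19 alternatives of the held-out difference and all 14 of the neighbour difference kept their direction. For the neighbour difference the rule itself can favour that direction. No test could pass 0.05 with 3 libraries against 3. With lists of equal length the held-out difference was -12.6 points (exact permutation p = 0.4). With a common width limit of 217 bp, chosen after the data were seen, it was -28.2 points (exact permutation p = 0.2). That limit exceeded the median THS width of cold replicates 2 and 3 (184 and 171 bp), so it removed most of their THSs. Their shares fell to 9.45 and 5.08%, against 51.9% in cold replicate 1 and 36.4 to 59.4% in the control libraries. This larger difference therefore does not show a stronger loss. Counting every neighbouring THS, removing a library from every step and the 4 libraries of long THSs were chosen then too. No pairing by replicate number was seen in the calls. The correlations of deviations between libraries of one number were 0.0108, -0.00709 and -0.00147, and those of unlike numbers -0.0324 to 0.0353. With all values near 0, this cannot exclude that libraries of one number were handled together. With a replicate block the held-out difference was -17.7 points (exact sign-flip p = 0.25, the smallest possible) and the neighbour difference -0.34 (exact sign-flip p = 0.5). Of the 31 named regions, 28 kept their pattern under the stricter score, 31 with equal lists, 30 with merging within 200 bp, 29 with windows of 200 bp and 28 when 50% of a region had to be covered. Only presence of calls was compared, so sites of lowered accessibility that were still called cannot be seen.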

Other observations

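On the unplaced sequence chrUn the same pattern was less frequent. Of 1246 regions of chrUn with a THS in at least 2 control libraries, 166 (13.3%) had no cold THS, against 26.1% on chromosomes 1 to 19. The shares were 33.5% of 415 regions with exactly 2 control libraries and 3.25% of 831 with all 3, against 44.2 and 8.13% on chromosomes 1 to 19. The median percentile of the weakest control THS was 48.0 and 85.6 in these classes of chrUn, against 34.0 and 64.8 on chromosomes 1 to 19. No test was made of this difference, and the part of the higher scores in it was not tested.

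The opposite pattern, at least 2 cold libraries with a THS and 0 control libraries with one, held for 1299 regions of chromosomes 1 to 19 (3.27% of all, and 17.7% of the 7345 regions with a THS in at least 2 cold libraries). Of these, 955 were held by cold replicates 2 and 3 without cold replicate 1.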
